A study of Homo sapiens with 18 samples.

Results

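The genes described here are pattern receptors and their partners, measured in MCF10A, an established line of human mammary epithelial cells that does not form tumours. The set was taken by gene symbol and holds 10 genes: the Toll-like receptors TLR1, TLR2, TLR3, TLR4, TLR5 and TLR6, the co-receptors CD14 and LY96, the adaptor MYD88 and the scavenger receptor OLR1. A probe set, meaning the group of probes that an array reads as 1 value, was annotated to 9 of the 10 symbols, 1 probe set each, among 18404 genes in all. No probe set was named for TLR5 here, so it has no value. OLR1, CD14 and TLR4 were picked with their levels on these arrays known, so their values are a description and carry no test. The other 6 measured genes entered as receptor relatives or partners, but the set as a whole was put together with earlier results of these data known. Their p-values are therefore not independent of that choice.

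RNA from 18 samples was hybridised to Affymetrix whole-transcript arrays, 3 for each of 6 groups. All cells had been infected with a pLKO lentivirus at a multiplicity of infection of 5, selected in 1.5 µg/ml puromycin for 4 days, left for 7 days or more, transfected transiently with plasmid cDNA and kept in estrogen-containing medium for 5 days, with 100 ng of total RNA labelled per array. The control arrays carried the non-targeting hairpin shNT and a control cDNA. Another 3 groups also carried shNT but received YAP/TAZ cDNA, ESR1 cDNA, or both. The last 2 groups received the control cDNA and carried the hairpin shLATS1B, aimed at LATS1, or the hairpins labelled shLATS1+2, aimed at LATS1 and LATS2. LATS1 and LATS2 are kinases of the Hippo pathway that hold back the co-activators YAP and TAZ, and ESR1 encodes estrogen receptor alpha. As models, these are pools of infected cells, and a transient transfection reaches only some of the cells. Whether replicates were separate cultures is not stated, and the p-values then cover only the scatter among these arrays, which may be technical.

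Pattern receptors recognise molecules shared by many microbes, or released by damaged cells, and switch on inflammatory genes. In the best known case, CD14 hands bacterial lipopolysaccharide to the complex of TLR4 and its co-receptor MD-2, the product of LY96, and the adaptor MYD88 passes the signal on to NF-kB. TLR2 pairs with TLR1 or TLR6 to read bacterial lipopeptides, TLR3 reads double-stranded RNA inside endosomes and signals without MYD88, and OLR1, also called LOX-1, is a lectin-like receptor that takes up oxidised low-density lipoprotein. Epithelial cells carry several of these receptors, although macrophages are where they were mostly studied.

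The labels were checked on the genes they name. LATS1 had a mean of 8.86 ± 0.086 log2 intensity (SD, n = 3) on the control arrays, 7.66 ± 0.13 with shLATS1B and 7.76 ± 0.090 with shLATS1+2. LATS2 was not lower with shLATS1+2, at 7.82 ± 0.090 against 7.73 ± 0.10, and YAP1 and WWTR1, which encodes TAZ, were not higher on the YAP/TAZ arrays, at 10.79 against 10.84 and 9.44 against 9.57. With both cDNAs WWTR1 was higher, at 9.99 (limma, adjusted p 0.0015), and YAP1 was not, at 10.88 (0.79). WWTR1 was also higher with shLATS1B, at 10.01 (0.0015). With ESR1 cDNA alone WWTR1 and YAP1 were lower, at 9.21 (0.0078) and 10.56 (0.014). LATS1 and LATS2 were higher with both cDNAs, at 9.33 (0.00017) and 7.97 (0.0073). ESR1 rose from 5.52 to 6.47 with its cDNA (limma, adjusted p 5.1e-07), but it also rose without that cDNA, to 6.37 with shLATS1B (6.1e-07) and 6.40 with shLATS1+2 (4.0e-07). With both cDNAs ESR1 was 6.03, lower than with its cDNA alone (adjusted p 0.00059). The level of ESR1 therefore does not mark the arrays that received its cDNA. All of these groups are called by their labels only, and each direction drawn from them rests on the label. The first principal component, 47.3% of the variance, placed all control, YAP/TAZ and ESR1 arrays between -23.0 and -10.3 and all other arrays between 9.83 and 22.7. No batch is named in the labels, so group and batch cannot be told apart for a change that follows this division. Within their groups, replicate 1 of ESR1, at -10.3, and replicate 3 labelled shLATS1+2, at 9.83, stood apart. So did control replicate 1, at -18.1 beside -23.0 and -22.8, and replicate 1 with both cDNAs, at 17.8 beside 22.7 and 22.3. All 8 measured mammary epithelial markers, among them KRT5, KRT14, EPCAM and CDH1, lay above 5.21, the 30th percentile of gene means, in every group. A mean below that level is called dim here, and a fold against it is given as a lower bound.

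The promoters of CD14, TLR3 and MYD88 are shown because these genes were higher in every other group than on the control arrays, and that of TLR4 because it was not. Each line gives the 250 bases before the start site in RefSeq, build GRCh38.p14, read on the gene's own strand, with motif matches in capitals. CD14 lies on the minus strand at chr5:140633176-140633425, TLR3 on the plus strand at chr4:186068906-186069155, MYD88 on the plus strand at chr3:38138411-38138660 and TLR4 on the plus strand at chr9:117704153-117704402.
CD14: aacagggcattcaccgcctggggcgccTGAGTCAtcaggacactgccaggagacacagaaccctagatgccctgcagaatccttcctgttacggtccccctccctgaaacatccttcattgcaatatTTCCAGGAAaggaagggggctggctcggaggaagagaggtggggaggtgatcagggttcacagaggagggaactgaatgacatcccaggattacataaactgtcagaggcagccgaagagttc
TLR3: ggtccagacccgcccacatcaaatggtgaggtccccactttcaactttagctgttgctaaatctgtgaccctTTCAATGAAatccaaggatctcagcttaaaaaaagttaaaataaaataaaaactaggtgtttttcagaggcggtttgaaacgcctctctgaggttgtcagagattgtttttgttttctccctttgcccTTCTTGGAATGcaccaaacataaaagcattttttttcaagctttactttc
MYD88: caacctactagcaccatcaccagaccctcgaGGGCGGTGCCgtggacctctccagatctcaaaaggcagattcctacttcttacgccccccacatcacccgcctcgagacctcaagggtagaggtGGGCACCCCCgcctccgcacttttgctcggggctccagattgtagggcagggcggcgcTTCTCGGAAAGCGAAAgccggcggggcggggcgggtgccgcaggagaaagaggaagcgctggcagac
TLR4: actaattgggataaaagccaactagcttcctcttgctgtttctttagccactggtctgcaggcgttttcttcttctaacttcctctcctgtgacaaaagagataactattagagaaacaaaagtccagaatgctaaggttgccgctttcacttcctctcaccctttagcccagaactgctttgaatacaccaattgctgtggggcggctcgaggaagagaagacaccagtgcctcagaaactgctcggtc
Promoter entries existed for 7 of the 10 members, and TLR2, TLR5 and TLR6 are the ones not printed. Motifs were searched on both strands as the kB form (GGG, then 5 bases of any kind, then CC), the interferon element core (TTTC, then 2 bases of any kind, then TTTC), the gamma-activated site (GAS) TTCNNNGAA, the AP-1 site TGANTCA and the TEAD site GGAATG, TEAD being the DNA-binding partner of YAP and TAZ. In 35116 promoters of this length, these letters were found in 54.4%, 3.02%, 6.57%, 6.57% and 11.9%, in that order. The CD14 window held a GAS from -123 to -115 and an AP-1 site from -223 to -217, counted from the start site. In the TLR3 window there were 2 GAS matches, from -178 to -170 and from -50 to -42, and the second overlapped a TEAD match from -45 to -40. The MYD88 window held 2 kB matches and an interferon core from -61 to -52 that overlapped a GAS from -67 to -59. No match was found in the TLR4 or TLR6 window. Such a match describes letters and shows no binding.

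OLR1 had the widest range among the 9 measured members. On the control arrays its probe set, 7961142, was dim at 5.02, 5.11 and 5.15. The YAP/TAZ arrays read 5.75, 5.71 and 5.73, and the ESR1 arrays 6.48, 6.28 and 6.87. With both cDNAs the values were 8.89, 8.76 and 8.86. All 3 of these groups lay above the control arrays, and they followed each other without overlap. The knockdown arrays read 8.65, 8.35 and 8.09 with shLATS1B and 8.38, 8.69 and 8.82 for those labelled shLATS1+2. These 2 ranges overlapped each other and that of shLATS1+2 also reached the range with both cDNAs.

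Group means of OLR1 were 5.09 ± 0.062 (SD, n = 3 here and below) for control, 5.73 ± 0.023 for YAP/TAZ, 6.54 ± 0.30 for ESR1, 8.84 ± 0.067 for both cDNAs, 8.36 ± 0.28 for shLATS1B and 8.63 ± 0.23 for shLATS1+2. Against the dim level, OLR1 was at least 12.4-fold higher with both cDNAs, at least 10.7-fold with shLATS1+2 and at least 8.92-fold with shLATS1B. The same bound was 2.52-fold for ESR1 and 1.44-fold for YAP/TAZ. With both cDNAs OLR1 was 8.61-fold higher than with YAP/TAZ and 4.91-fold higher than with ESR1. As the control level is dim, no exact difference from it is given, nor whether both cDNAs together gave more than their sum. Without ESR1 replicate 1 the ESR1 mean of OLR1 was 6.57, at least 2.58-fold above the dim level, and without replicate 3 the shLATS1+2 mean was 8.53, at least 10.04-fold above it. OLR1 sits on one side of the division seen in the first component with its 9 high arrays, and it also differed within the other side, where control, YAP/TAZ and ESR1 did not overlap.

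**Figure D1:**
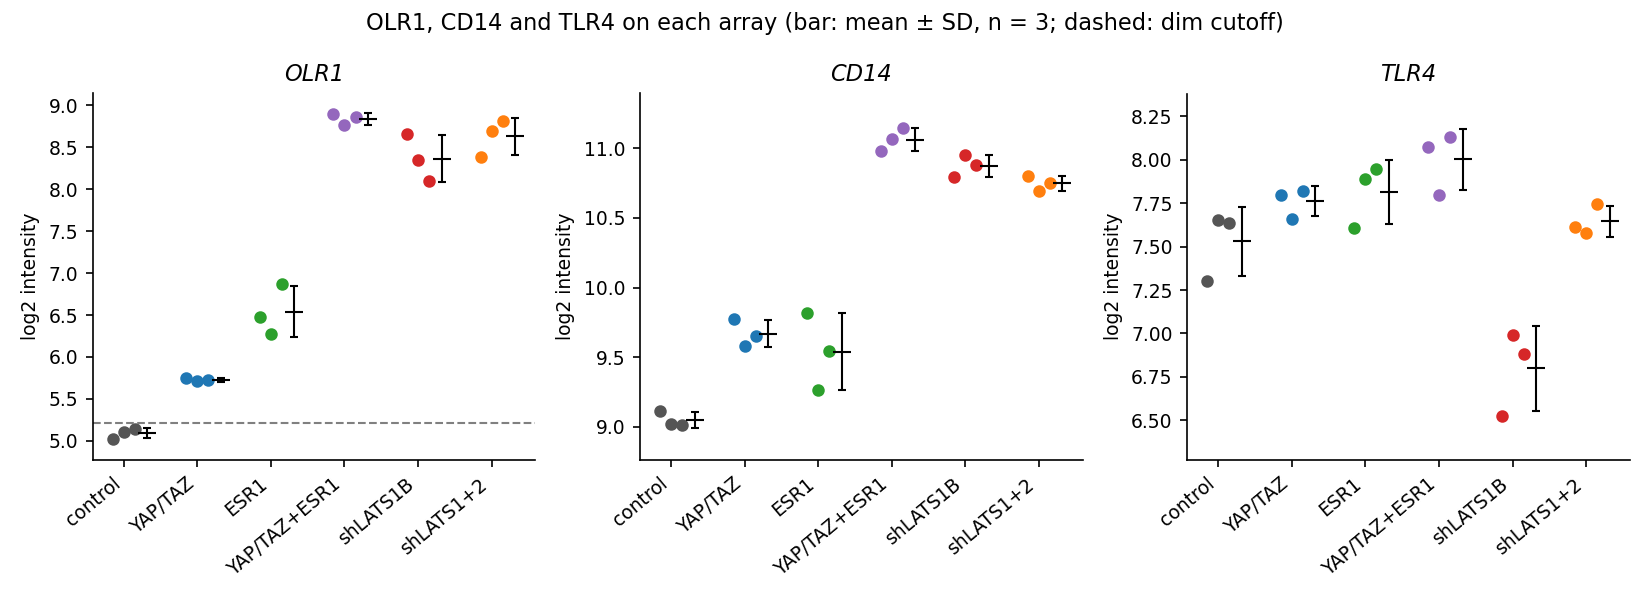
OLR1, CD14 and TLR4 on each of the 18 arrays, in log2 intensity, by group; points are arrays, bars the mean ± SD of 3 arrays and the dashed line the dim level of 5.21. OLR1 and CD14 are high with both cDNAs and with either hairpin label, while TLR4 is lowest on the shLATS1B arrays at 6.52 to 6.99.

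CD14, which binds lipopolysaccharide and presents it to TLR4, followed a similar order over a smaller range. The control arrays read 9.11, 9.02 and 9.01 on probe set 8114612, the YAP/TAZ arrays 9.78, 9.58 and 9.65 and the ESR1 arrays 9.81, 9.26 and 9.54. The arrays with both cDNAs read 10.98, 11.07 and 11.14. Values were 10.79, 10.95 and 10.88 with shLATS1B and 10.80, 10.69 and 10.75 labelled shLATS1+2. Every treated array stood above all 3 control arrays. The YAP/TAZ and ESR1 ranges overlapped, as did those of the 2 hairpin labels, and the range with both cDNAs lay above all others.

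CD14 means were 9.05 ± 0.055 for control, 9.67 ± 0.099 for YAP/TAZ, 9.54 ± 0.27 for ESR1, 11.06 ± 0.083 for both cDNAs, 10.87 ± 0.079 for shLATS1B and 10.75 ± 0.054 for shLATS1+2. CD14 was thus 4.03-fold above control with both cDNAs, 3.54-fold with shLATS1B and 3.24-fold with shLATS1+2, against 1.54-fold with YAP/TAZ and 1.40-fold with ESR1. On the log2 scale these were 2.01, 1.82, 1.70, 0.62 and 0.49, each with a standard error (SE) of 0.098. The difference for ESR1 was 0.35 without ESR1 replicate 1, the highest CD14 array of its group. Both cDNAs exceeded the sum of the single cDNAs by 0.90 ± 0.14 (SE), or by 1.04 without that replicate. The log2 difference of shLATS1+2 from shLATS1B was -0.13, with an SE of 0.098.

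TLR4, the receptor that CD14 serves, did not follow CD14. On probe set 8157524 the control arrays read 7.30, 7.66 and 7.64, the YAP/TAZ arrays 7.80, 7.66 and 7.82 and the ESR1 arrays 7.61, 7.89 and 7.95. With both cDNAs TLR4 read 8.08, 7.80 and 8.13. The shLATS1B arrays read 6.52, 6.99 and 6.88 and those labelled shLATS1+2 read 7.61, 7.58 and 7.75. All 3 shLATS1B arrays lay below every other array. The ESR1 and shLATS1+2 ranges overlapped that of the control arrays, and the YAP/TAZ range lay just above it. With both cDNAs all 3 arrays were above the control arrays and overlapped both single cDNA groups.

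In order, the TLR4 means were 6.80 ± 0.24 for shLATS1B, 7.53 ± 0.20 for control, 7.65 ± 0.089 for shLATS1+2, 7.76 ± 0.087 for YAP/TAZ, 7.81 ± 0.18 for ESR1 and 8.002 ± 0.18 for both cDNAs. From control upward, neighbours in this order did not differ beyond their spread. TLR4 was 1.66-fold lower with shLATS1B than on the control arrays, a log2 difference of -0.73 with an SE of 0.13, and 1.39-fold higher with both cDNAs. Between the hairpin labels, TLR4 was 1.80-fold higher with shLATS1+2, a log2 difference of 0.85 with an SE of 0.13. Over the alternatives run, that difference stayed between 0.71 and 0.94. LATS1 was lower under both labels, and the differences of OLR1 and CD14 between the labels were 0.26 and -0.13. The log2 differences of TLR4 from control for YAP/TAZ and ESR1, 0.23 and 0.28, stood beside a control SD of 0.20.

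LY96, whose protein MD-2 holds lipopolysaccharide on TLR4, was dim on all 18 arrays, with group means from 4.50 to 4.71 on probe set 8146934. It passed no test. The fit was limma's moderated test across all genes, with p-values adjusted by the Benjamini-Hochberg method over 18404 genes and called under 0.05. The log2 difference of LY96 from control was between -0.10 and 0.11 in the 5 groups, and no fold is given between dim levels.

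TLR3 rose in every comparison with control. The control arrays read 9.07, 9.05 and 9.03 on probe set 8098611. Those with shLATS1B read 9.90, 9.98 and 9.88 and those labelled shLATS1+2 read 9.997, 10.05 and 10.05. Values were 10.002, 9.91 and 10.09 for YAP/TAZ, 10.16, 10.20 and 10.26 for ESR1 and 10.65 on each array with both cDNAs. The control arrays lay below all others and the arrays with both cDNAs above all others, the shLATS1B arrays lay just below those labelled shLATS1+2, and the YAP/TAZ arrays overlapped both.

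TLR3 was 3.04-fold higher with both cDNAs than on the control arrays (log2 1.60 ± 0.047 SE, adjusted p 1.8e-13). It was 2.23-fold higher with ESR1 (adjusted p 3.6e-11), 1.93-fold with YAP/TAZ (7.8e-10), 1.98-fold with shLATS1+2 (1.3e-10) and 1.83-fold with shLATS1B (5.4e-10). Both cDNAs gave more than either alone, by 0.65 over YAP/TAZ (adjusted p 3.1e-08) and by 0.44 over ESR1 (2.6e-06) on the log2 scale. Their joint change was smaller than the sum of the single changes, with an interaction of -0.51 (SE 0.066, adjusted p 4.5e-05). For CD14 the joint difference was instead larger than the sum. TLR3 differed by 0.11 between the hairpin labels, with a 95% confidence interval of 0.013 to 0.21 (adjusted p 0.40).

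**Figure D2:**
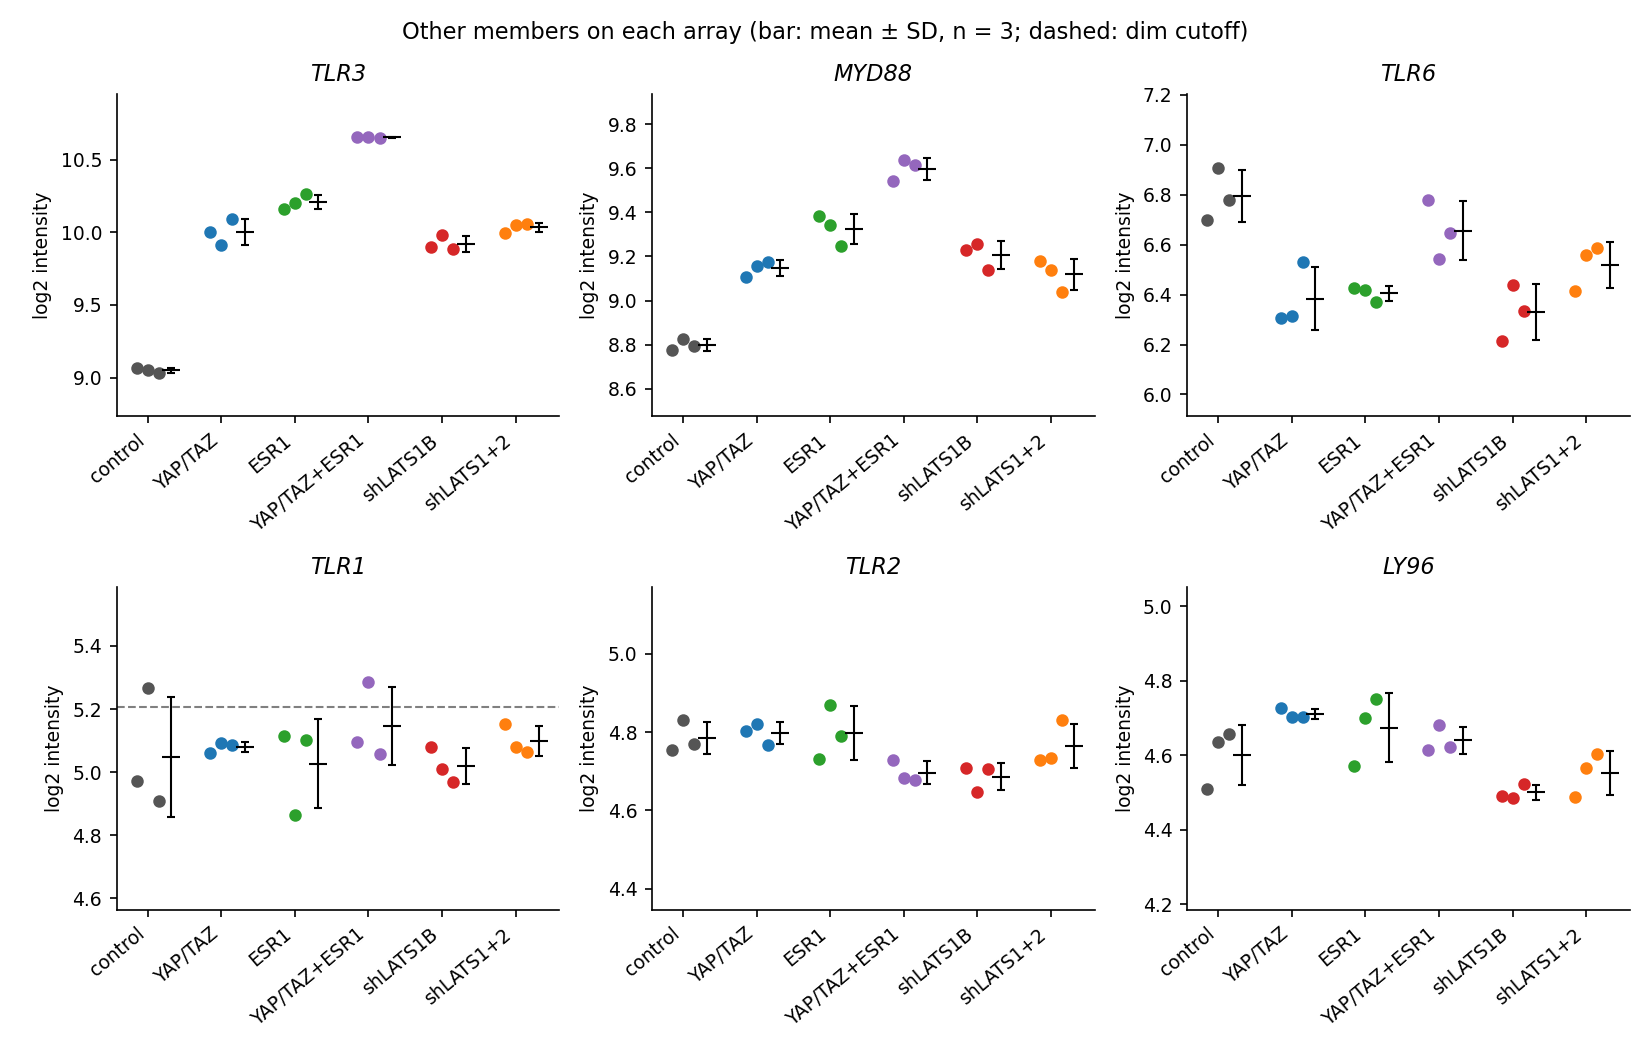
TLR3, MYD88, TLR6, TLR1, TLR2 and LY96 on each array, in log2 intensity, by group; points are arrays, bars the mean ± SD of 3 arrays, and the dashed line, where in range, the dim level. TLR3 and MYD88 have their lowest arrays in the control group and their highest with both cDNAs, and TLR6 is highest in the control group.

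TLR6, which pairs with TLR2, fell in 4 of the 5 comparisons with control. On probe set 8099841 the control arrays read 6.70, 6.90 and 6.78 and those with both cDNAs 6.78, 6.54 and 6.65. The YAP/TAZ arrays read 6.30, 6.32 and 6.53 and the ESR1 arrays 6.42, 6.42 and 6.37. With shLATS1B the values were 6.21, 6.44 and 6.34, and 6.41, 6.56 and 6.59 labelled shLATS1+2. The 3 control arrays lay above every array of the YAP/TAZ, ESR1, shLATS1B and shLATS1+2 groups, and overlapped those with both cDNAs.

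TLR6 was 1.38-fold lower with shLATS1B (log2 -0.47, SE 0.079, adjusted p 0.00027), 1.33-fold lower with YAP/TAZ (adjusted p 0.0033) and 1.31-fold lower with ESR1 (0.0022). With shLATS1+2 it was 1.21-fold lower (adjusted p 0.016), a call lost without control replicate 2 (0.085) or without shLATS1+2 replicate 1 (0.082). With both cDNAs the difference was -0.14 and did not pass (adjusted p 0.23). The interaction of the 2 cDNAs was 0.66 ± 0.11 (SE, adjusted p 0.00051), so the joint difference was smaller in size than the sum of the falls. With both cDNAs TLR6 was 0.27 above YAP/TAZ (adjusted p 0.019) and 0.25 above ESR1 (0.024). The first of these calls was lost without YAP/TAZ replicate 1 or 2 or replicate 1 with both cDNAs (adjusted p up to 0.089), and the second without ESR1 replicate 2 or 3 or replicate 1 or 3 with both cDNAs (up to 0.11).

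TLR2 was dim on all 18 arrays, with group means from 4.69 to 4.80 on probe set 8097903. TLR1, its other partner, was dim on 16 of 18, with group means from 5.02 to 5.15 on probe set 8099834. Neither passed the test in any of the 9 comparisons. The log2 differences from control lay between -0.098 and 0.013 for TLR2 and between -0.029 and 0.098 for TLR1. TLR1 and TLR6 are near-identical over part of their length, so probes lying there could share signal between them, and their values are uncertain to that extent.

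MYD88, the adaptor that most of these receptors use, rose in all 5 comparisons with control. Control arrays read 8.78, 8.83 and 8.79 on probe set 8078729, against 9.11, 9.16 and 9.18 for YAP/TAZ and 9.38, 9.34 and 9.25 for ESR1. With both cDNAs the values were 9.54, 9.64 and 9.61, with shLATS1B 9.23, 9.26 and 9.14 and labelled shLATS1+2 9.18, 9.14 and 9.04. The control arrays lay below every other array and those with both cDNAs above every other array.

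MYD88 was 1.74-fold above control with both cDNAs (log2 0.80 ± 0.050 SE, adjusted p 2.4e-09) and 1.44-fold with ESR1 (1.6e-06). The rises were 1.33-fold with shLATS1B (adjusted p 9.8e-06), 1.27-fold with YAP/TAZ (0.00026) and 1.25-fold with shLATS1+2 (0.00012). Both cDNAs exceeded YAP/TAZ by 0.45 (adjusted p 4.1e-06) and ESR1 by 0.27 (0.00055) on the log2 scale. The interaction did not pass, at -0.074 with an adjusted p of 0.54. Between the hairpin labels MYD88 differed by -0.089 (adjusted p 0.47).

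**Figure D3:**
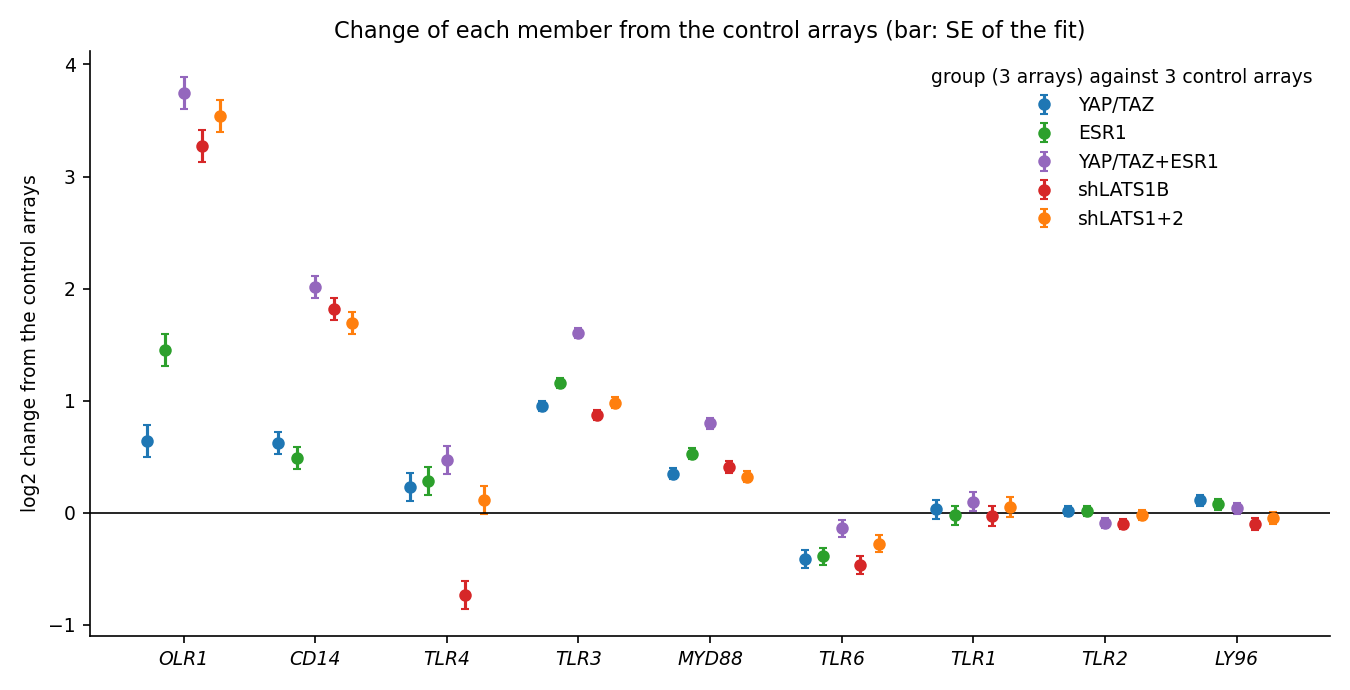
Difference of each measured member from the 3 control arrays, in log2, for the 5 other groups of 3 arrays; points are differences of means and bars the SE of the fit. CD14 spans 0.49 to 2.01 and OLR1 is plotted from measured intensities, so its points, from 0.64 to 3.74, are not exact against a dim control level, TLR4 falls below 0 with shLATS1B alone, and TLR1, TLR2 and LY96 stay near 0.

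Of the 6 members tested, 3 were called in each of the comparisons with control for shLATS1B, shLATS1+2, YAP/TAZ and ESR1, with TLR3 and MYD88 higher and TLR6 lower each time. Over all genes, 24.0%, 24.8%, 7.00% and 18.9% were called in these comparisons, in that order. With both cDNAs 2 of 6 were called, both higher, against 29.4% of all genes. Against YAP/TAZ and against ESR1, the arrays with both cDNAs had 3 of 6 members higher, where 22.7% and 29.1% of all genes were called. None of the 6 was called between the hairpin labels, where limma called 0.321% of genes, 2136 genes had an unadjusted p under 0.05 and no other tool was run. In the interaction 2 of 6 were called against 19.1%. The 5 comparisons with control share the same 3 control arrays and are not independent. As the RNA comes from whole cultures, a lower share of cells with a transcript and less of it per cell cannot be told apart.

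Proteins of the cells' own can engage TLR2 or TLR4, and of 10 measured genes for such ligands 5 rose and none fell with YAP/TAZ, while 5 rose and 3 fell with ESR1. S100A8, a subunit of the neutrophil protein calprotectin, rose 2.12 ± 0.23 (SE) on the log2 scale with YAP/TAZ (adjusted p 1.1e-05) and 1.38 with ESR1 (0.00039). FN1, the matrix protein fibronectin, had means of 8.57 ± 0.21 on the control arrays, 10.15 ± 0.069 with YAP/TAZ and 9.82 ± 0.13 with ESR1, but 7.61 ± 0.11 with both, 6.81 ± 0.077 with shLATS1B and 6.72 ± 0.039 with shLATS1+2. All 5 differences of FN1 from control passed, with 2 rises and 3 falls. With both cDNAs 3 of the 10 rose and 2 fell, and under each hairpin label 2 rose and 4 fell. SAA1, an acute-phase protein, fell by 1.15 with shLATS1B and by 0.78 with shLATS1+2 and rose by 1.14 with YAP/TAZ, although SAA1 and SAA2 are near-identical copies and cannot be split with confidence. In all, 60%, 60%, 50%, 80% and 50% of the 10 were called for shLATS1B, shLATS1+2, YAP/TAZ, ESR1 and both cDNAs, where 24.0%, 24.8%, 7.00%, 18.9% and 29.4% of all genes were. The median log2 difference of the 10 was 0.47 with YAP/TAZ, 0.45 with ESR1, 0.052 with both, -0.083 with shLATS1B and -0.070 with shLATS1+2, where the medians of all genes lay between -0.0080 and 0.0021.

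Among 21 measured adaptors and kinases below the receptors, 4 rose and 4 fell with shLATS1B, 5 rose and 2 fell with shLATS1+2, and 7 rose and 2 fell with both cDNAs. With YAP/TAZ 2 rose and 1 fell, and with ESR1 1 rose and 2 fell. The shares called were 38.1%, 33.3%, 14.3%, 14.3% and 42.9% for shLATS1B, shLATS1+2, YAP/TAZ, ESR1 and both cDNAs, against 24.0%, 24.8%, 7.00%, 18.9% and 29.4% of all genes. IRAK2, a kinase of the MYD88 complex, rose by 0.95 with shLATS1B (SE 0.081, adjusted p 1.6e-07), by 0.84 with shLATS1+2 and by 1.11 with both cDNAs, from a control mean of 6.01 ± 0.11. IRAK2 also rose by 0.29 with YAP/TAZ (adjusted p 0.044). IKBKE, a kinase that activates interferon regulatory factors, rose by 0.92 with shLATS1B, 1.04 with shLATS1+2 and 1.06 with both cDNAs. IRF7, such a factor, rose in all 5 comparisons, by 0.77 with shLATS1B, 0.76 with shLATS1+2, 0.55 with YAP/TAZ, 0.87 with ESR1 and 1.11 with both. PELI1, a ubiquitin ligase of the pathway, fell by 0.52 with shLATS1B, 0.56 with shLATS1+2, 0.29 with YAP/TAZ and 0.36 with ESR1. The list's median difference was between -0.071 and 0.057 in the 5 comparisons.

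Of 18 measured genes for delivery of the receptors or restraint of their signal, 6 rose and 2 fell with shLATS1B, 5 and 2 with shLATS1+2, 3 and 0 with YAP/TAZ, 4 and 1 with ESR1 and 9 and 2 with both cDNAs. These are 44.4%, 38.9%, 16.7%, 27.8% and 61.1% of the list, in that order, against 24.0%, 24.8%, 7.00%, 18.9% and 29.4% of all genes. UNC93B1, which carries TLR3 and other nucleic acid receptors to endosomes, rose in all 5, by 0.56, 0.58, 0.43, 0.48 and 0.88 in the same order of groups. SIGIRR, an inhibitory receptor of the same superfamily, rose by 0.92 with shLATS1B (SE 0.092, adjusted p 1.0e-06), 0.80 with shLATS1+2 and 0.96 with both cDNAs. TRAFD1, a negative regulator, rose by 1.00, 0.95 and 1.05 in these groups. LRRC59, which helps move nucleic acid receptors out of the endoplasmic reticulum, fell by 0.63, 0.72 and 0.64 in these groups and by 0.29 with ESR1. TNFAIP3, the NF-kB inhibitor A20, rose by 0.77 with YAP/TAZ and 0.66 with ESR1. IL1RL1, also called higher with YAP/TAZ, was dim in both groups compared, so no difference is given.

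Most of the 20 other measured pattern receptors did not pass. With each hairpin label 2 rose and 1 fell, with each single cDNA 2 rose, and with both cDNAs 3 rose. This is 15% of the list under each hairpin label and with both cDNAs, where 24.0%, 24.8% and 29.4% of all genes were called, and 10% with each single cDNA, where 7.00% (YAP/TAZ) and 18.9% (ESR1) were. IFIH1, the cytoplasmic sensor MDA5 of double-stranded RNA, was the largest of them in all 5 comparisons. Its control mean was 6.81 ± 0.34, and it rose by 1.77 with shLATS1B (SE 0.13, adjusted p 1.9e-08), 1.81 with shLATS1+2, 1.77 with YAP/TAZ, 1.96 with ESR1 and 2.50 with both. DHX58, its relative LGP2, also rose in all 5, from a dim control level, by at least 1.23-fold with shLATS1B and at least 1.73-fold with both cDNAs. NOD2, a sensor of bacterial wall fragments, called lower with shLATS1B, and NLRP3, an inflammasome sensor, called lower with shLATS1+2, were dim in both groups compared, so no difference is given. The same holds for AIM2, also of this list, which was called higher with both cDNAs.

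OLR1's functional relatives, 20 other measured scavenger receptors, had 4 higher and 1 lower with shLATS1B, 4 and 2 with shLATS1+2, and 4 and 0 with both cDNAs. With YAP/TAZ 1 rose and 3 fell, and with ESR1 2 rose and 2 fell. The shares of the list called were 25% with shLATS1B and 30% with shLATS1+2, near the 24.0% and 24.8% of all genes, and 20% in each of the other 3 comparisons, against 7.00% for YAP/TAZ, 18.9% for ESR1 and 29.4% for both. CD68, a lysosomal receptor of macrophages that epithelial lines also express, had a control mean of 9.62 ± 0.024 and rose by 0.90 with shLATS1B, 0.71 with shLATS1+2 and 0.96 with both cDNAs, but fell by 0.37 with YAP/TAZ (SE 0.059, adjusted p 0.00066). LRP1, an endocytic receptor, rose by 0.88, 0.68 and 1.32 in those 3 groups. CXCL16, a membrane chemokine that also binds oxidised lipoprotein, rose in all 5 comparisons, from 0.34 with YAP/TAZ to 1.06 with both cDNAs. The median of the 20 stayed between 0.014 and 0.032.

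OLR1 lies in a cluster of lectin-like receptor genes, and 15 of its neighbours were measured. None passed with YAP/TAZ, 1 rose with shLATS1B, 3 with shLATS1+2, 1 with ESR1 and 2 with both cDNAs, and none fell in these comparisons. At 6.67%, 20%, 6.67% and 13.3% for shLATS1B, shLATS1+2, ESR1 and both cDNAs, these shares lay under the 24.0%, 24.8%, 18.9% and 29.4% of all genes. The largest was GABARAPL1, an autophagy gene beside the lectin genes, at 0.94 with both cDNAs (SE 0.088, adjusted p 3.1e-07). TMEM52B, from a dim control level, was at least 1.17-fold higher in that group. KLRG1, an inhibitory receptor of lymphocytes, was called higher with both hairpin labels from a dim control level, but it was dim with shLATS1B too and only at least 1.02-fold higher with shLATS1+2. KLRG1 was also the gene called with ESR1, where it was dim and its arrays overlapped the control arrays. TMEM52B was called higher with shLATS1+2 too, but was dim there.

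NF-kB targets that the receptors are known to induce were mostly higher. Of 18 measured, 12 rose and 2 fell under each hairpin label, 10 rose with YAP/TAZ, 11 rose and 1 fell with ESR1, and 13 rose and 1 fell with both cDNAs. The shares called were 77.8% under each hairpin label and with both cDNAs, 55.6% with YAP/TAZ and 66.7% with ESR1, where 24.0% (shLATS1B), 24.8% (shLATS1+2), 29.4%, 7.00% and 18.9% of all genes were called. Their median log2 difference was 0.42 with shLATS1B, 0.56 with shLATS1+2, 0.22 with YAP/TAZ, 0.36 with ESR1 and 0.64 with both. LCN2, the iron-binding antibacterial protein lipocalin 2, had means of 6.23 ± 0.20 for control, 7.45 ± 0.064 for YAP/TAZ, 8.11 ± 0.082 for ESR1, 10.04 ± 0.018 for both cDNAs, 8.04 ± 0.098 for shLATS1B and 8.22 ± 0.11 for shLATS1+2. Its rise with both cDNAs was 3.81 ± 0.084 (SE, adjusted p 6.0e-15). TNFAIP2, a tumour necrosis factor response gene, rose by 3.00 with shLATS1B (SE 0.11, adjusted p 4.3e-12), by 2.96 with shLATS1+2 and by 1.83 with both cDNAs. ICAM1, a leukocyte adhesion molecule, rose in all 5 comparisons, between 0.58 with YAP/TAZ and 1.26 with shLATS1B.

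CCL20, a chemokine for dendritic cells and lymphocytes, went with the list under either cDNA alone but against it with both cDNAs and under the hairpin labels. Its means were 7.49 ± 0.22 for control, 8.95 ± 0.13 for YAP/TAZ and 9.15 ± 0.36 for ESR1, and 5.93 ± 0.34 for both cDNAs, 6.01 ± 0.18 for shLATS1B and 6.78 ± 0.31 for shLATS1+2. It rose with either cDNA alone (adjusted p 0.00012 for YAP/TAZ and 1.6e-05 for ESR1) and fell with both (9.3e-06) and under both hairpin labels (2.2e-05 and 0.012). CSF3, a granulocyte growth factor, was the 1 gene of the 122 in these lists that was called between the hairpin labels, lower with shLATS1+2, at a log2 difference of -0.51. Over the 122 genes together, 31 rose and 14 fell with shLATS1B, 33 and 13 with shLATS1+2, 23 and 4 with YAP/TAZ, and 41 and 7 with both cDNAs. For ESR1 the counts were 26 and 9, or 20 and 13 once each array was centred on its median. The same centring gave 28 and 16 for shLATS1+2, 30 and 14 for shLATS1B, 20 and 4 for YAP/TAZ and 38 and 7 for both. It also moved the counts over all genes, to 818 rises and 2930 falls for ESR1 and 1674 and 2764 for shLATS1+2. The centred counts for shLATS1B, YAP/TAZ and both were 1903 and 2113, 422 and 617, and 2410 and 2588. Over all genes without centring, 2286 rose and 2129 fell with shLATS1B, 2174 and 2390 with shLATS1+2, 582 and 707 with YAP/TAZ, 1295 and 2192 with ESR1 and 2700 and 2714 with both. The shares of the 122 called were 36.9%, 37.7%, 22.1%, 28.7% and 39.3%, in that order, against 24.0%, 24.8%, 7.00%, 18.9% and 29.4% of all genes. Without ESR1 replicate 1 and shLATS1+2 replicate 3, the counts were 26 and 14 for ESR1 and 35 and 13 for shLATS1+2. The members and lists were picked with earlier results in view, so these counts describe the lists and set them apart from no other genes.

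**Figure D4:**
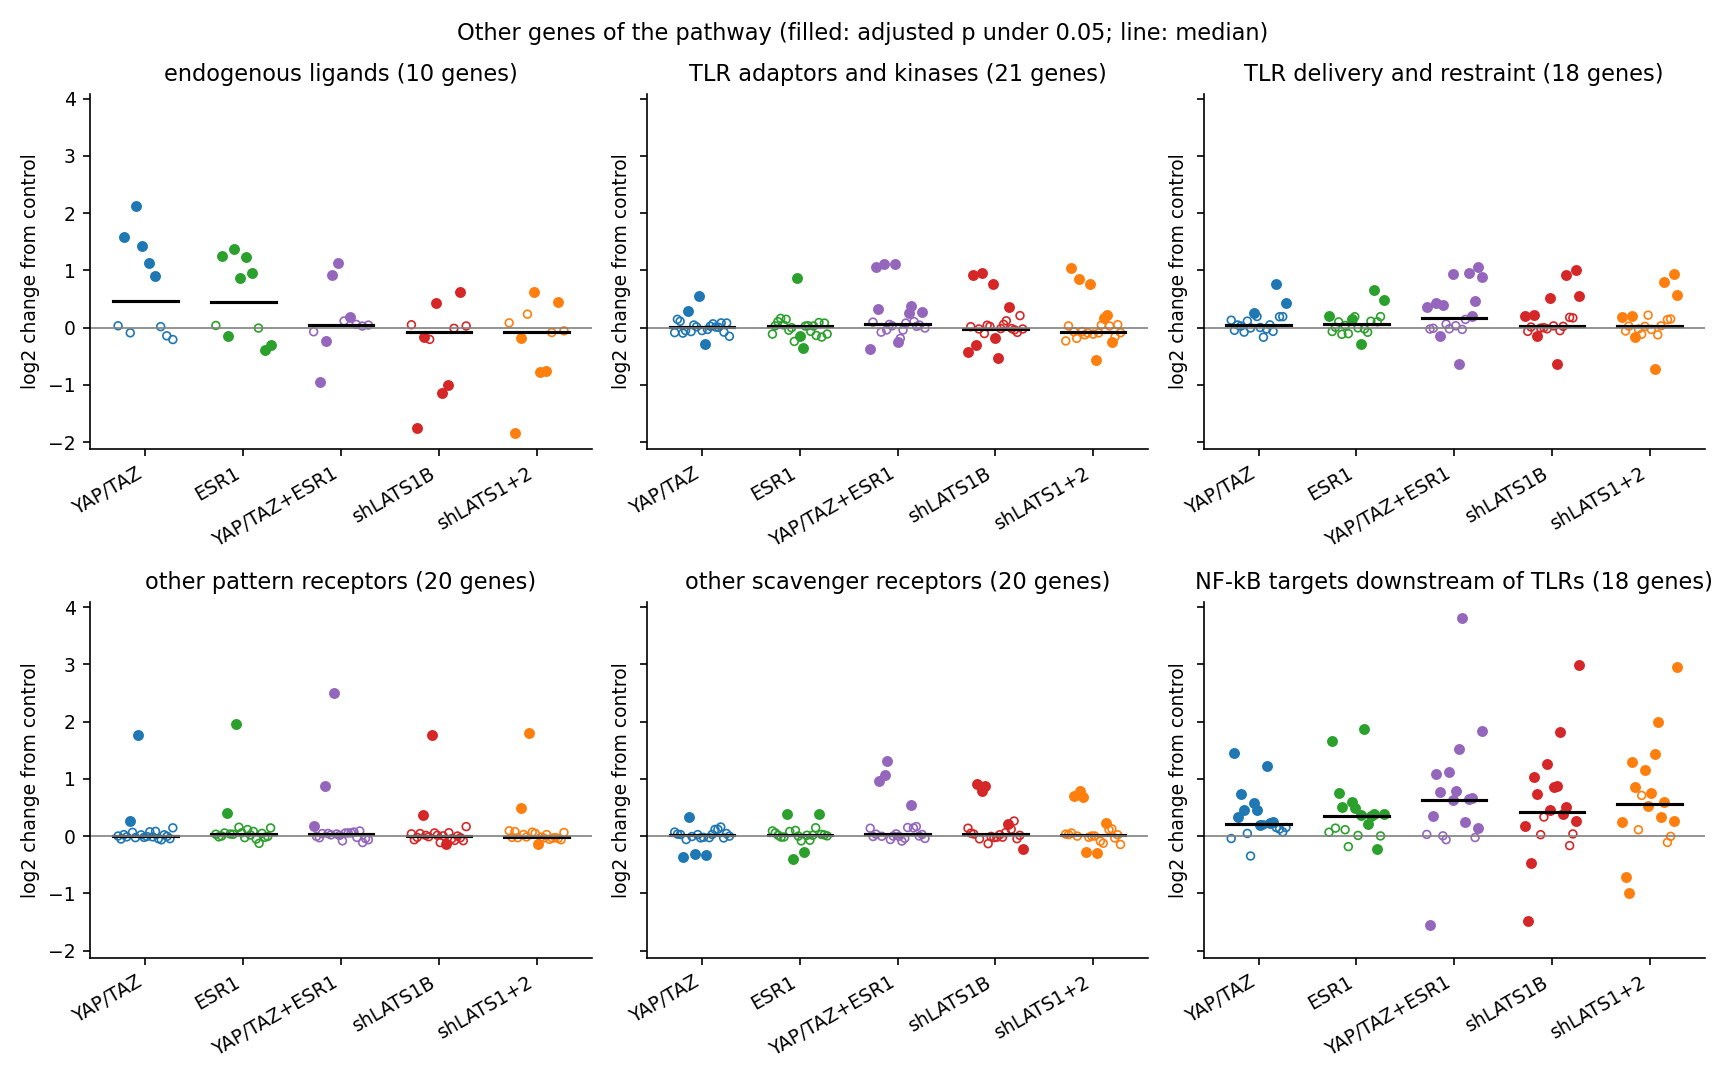
Differences from the control arrays, in log2, of the other pathway genes in 6 lists, by group of 3 arrays; each point is a gene, filled where its adjusted p was under 0.05, and the line is the list's median. The ligand list is high with the single cDNAs, with medians of 0.47 and 0.45, and the NF-kB targets have positive medians in all 5 groups, up to 0.64.

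Genes with group means most like those of the 3 receptors were found by the root mean square difference of the 6 group means, each gene centred on its own mean, among genes that were not dim. For CD14 the nearest was TMC4, a channel-like membrane protein, at 0.095 log2, followed by IRF1, an interferon-responsive transcription factor, at 0.12, TNS3, a focal adhesion protein, at 0.13, and FAT2, a cadherin, and ADGRG1, an adhesion receptor, at 0.14 each. IRF1 went from 6.77 on the control arrays to 8.67 with both cDNAs, and TMC4 from 6.83 to 8.82. For OLR1 no gene came as near, with AQP3, a water and glycerol channel, first at 0.40, then CPA4, a carboxypeptidase, at 0.51, TNFSF10, the death ligand TRAIL, and CYP26B1, a retinoic acid hydroxylase, at 0.52 each and FBXO32, a ubiquitin ligase subunit, at 0.54. These distances are not scaled to the range of a gene. Group means ran from 5.09 to 8.84 for OLR1, from 9.05 to 11.06 for CD14 and from 6.80 to 8.002 for TLR4. A wider range leaves room for larger distances, so the distances of the 3 receptors are not directly comparable. AQP3 was 6.59 on the control arrays and 10.22 with both cDNAs. TNFSF10 shared with OLR1 a stepwise order in the shNT groups, at 6.83, 8.43, 9.20 and 10.76 for control, YAP/TAZ, ESR1 and both.

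TLR4 was most like PCSK5, a proprotein convertase, at 0.11. The PCSK5 means were 6.94 for control, 7.14 for YAP/TAZ, 7.24 for ESR1 and 7.64 for both cDNAs, with 6.14 for shLATS1B and 6.95 for shLATS1+2. SLC7A11, the cystine transporter, came next at 0.19, then the small nucleolar RNAs SNORD116-6 at 0.19 and SNORD116-20 and SNORD116-1 at 0.20 each. The SNORD116 genes are copies of each other, so their probes may share signal. These likenesses rest on 6 group means that share the same arrays, and they are a description.

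**Figure D5:**
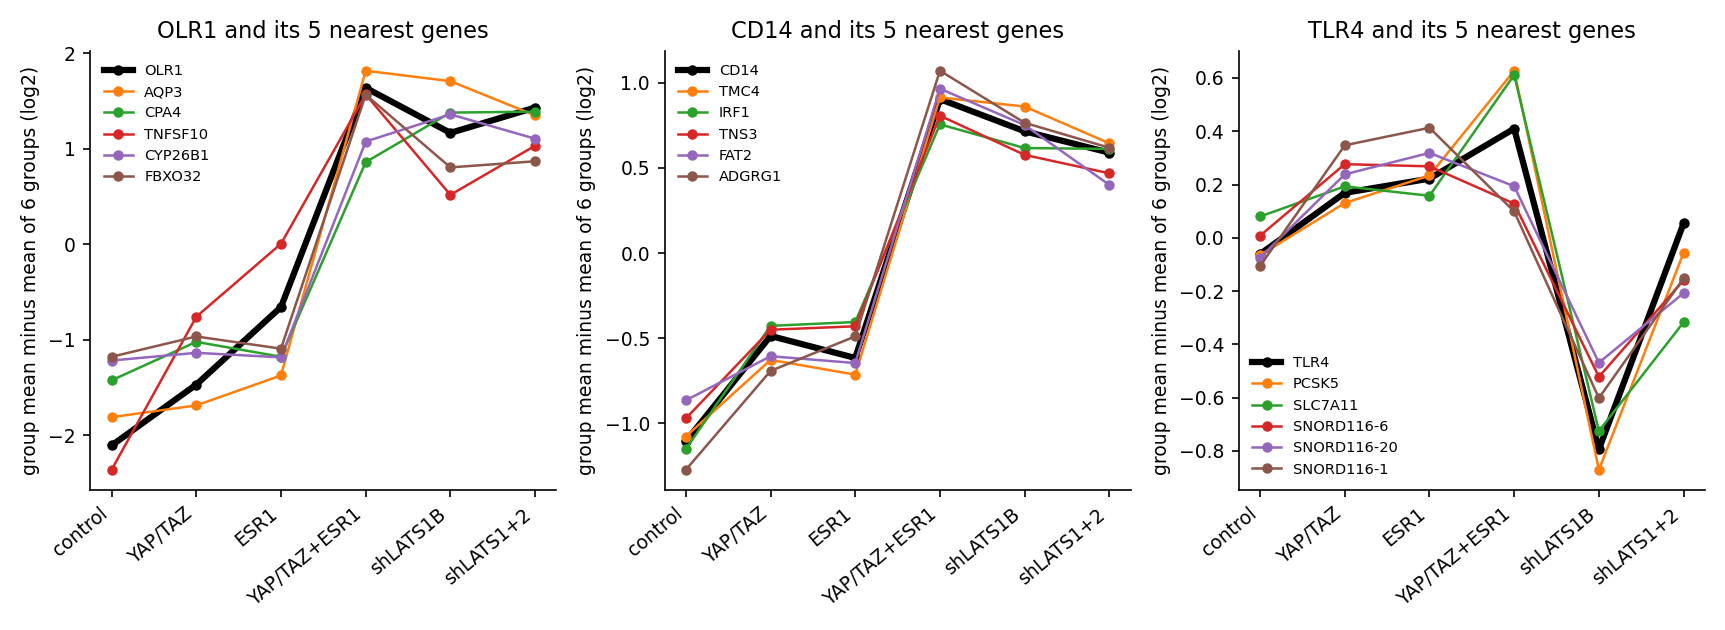
Group means of OLR1, CD14 and TLR4 (black) and of the 5 genes nearest to each (coloured), in log2, with each gene centred on the mean of its 6 groups. The lines for CD14 lie close together, at 0.095 to 0.14 from CD14, and those for OLR1 are spread more widely, at 0.40 to 0.54.

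CD14, TLR4 and OLR1 are best known on macrophages, so markers of other cell types were read on the same arrays. Of 13 measured myeloid markers, 7 were above the dim level on the control arrays, namely ITGAM, ITGAX, CSF1R, TYROBP, SPI1, LAPTM5 and CD68. These 7 were above it in every other group too. The leukocyte gene PTPRC, CD163, LYZ, AIF1, FCER1G and MARCO were below it on the control arrays, and MARCO was above it with ESR1. The summed linear intensity of the 13 was 1409 to 1434 on the control arrays, 1188 to 1229 for YAP/TAZ and 1344 to 1420 for ESR1. It was 2016 to 2200 with both cDNAs, 1995 to 2077 with shLATS1B and 1741 to 1923 with shLATS1+2, the groups in which OLR1 and CD14 were highest. Without CD68 the sum was 618 to 637 on the control arrays, against 549 to 580 with both cDNAs, 560 to 577 with shLATS1B and 556 to 569 with shLATS1+2. The part of other cells in these results was not tested beyond those values. PTPRC, CD163, LYZ, AIF1 and FCER1G were dim in all 6 groups. Of 7 lymphoid, 8 endothelial and 7 fibroblast markers measured, 2, 3 and 4 were above the dim level on the control arrays.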

How the data were processed

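The deposited table holds 1 column of log2 intensity per array for 32321 probe sets, from 3.561 to 13.75. The authors' processing of these log2 values used affy, an R package, per the submitters' processing notes. Their background correction, normalization and genome build: not given in the sources used here. Medians of the arrays, 5.494 to 5.619, and within-group correlations of 0.993 to 0.998 were read from the table, and no 2 columns were identical. The platform annotation gave 19158 probe sets a single symbol, 1388 several and 11775 are unnamed here. Of these, 19128 matched RefSeq (GRCh38.p14) by gene identifier. The brightest probe set was kept for 637 genes with several, leaving 18404 genes and no filter.

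All 18 arrays were fitted with 1 mean per group in R 4.3.3 with limma 3.58.1 (lmFit, contrasts.fit, eBayes), with 12 residual and 3.94 prior degrees of freedom. Tests were two-sided, with Benjamini-Hochberg adjustment over all genes and calls under 0.05. The interaction is the change from ESR1 to both cDNAs minus that from control to YAP/TAZ. The fit was tested on simulated data. The number of arrays limits the precision. The members and gene lists were chosen with earlier results of these data known. Named were all members, up to 4 called genes of each list and comparison with the largest change, the 5 genes nearest to each of OLR1, CD14 and TLR4, and the targeted genes. Alternatives were array centring, quantile normalization, other probe set rules, a filter on dim genes, array weights, fewer arrays, a replicate block and leaving out arrays. Leaving out ESR1 replicate 1 and shLATS1+2 replicate 3 together was chosen after seeing the data. Control replicate 1 and replicate 1 with both cDNAs, which also stood apart, were left out only singly.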

Additional observations from a re-analysis of the deposited data

Results flagged for a closer look

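The values here are differences between groups in the effect of 1 cDNA, tested as the interaction of YAP/TAZ and ESR1 across all genes by limma and past an adjusted p of 0.05. They are given in log2 for the members and for the genes named from the lists, with no explanation. Among the members, the interaction was -0.51 for TLR3 and 0.66 for TLR6.

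Values above 0 mean that the change from ESR1 to both cDNAs lay above the change from control to YAP/TAZ. Of the adaptors and kinases, IKBKE had 0.84, IRAK2 0.68, PELI1 0.46 and TAB3 0.34. Among genes of delivery and restraint, SIGIRR had 0.91, TRAFD1 0.67 and INPP5D 0.55. The scavenger receptors CD68, LRP1, LRP8 and SCARA3 had 1.35, 1.24, 0.66 and 0.52. GABARAPL1 and TMEM52B, beside OLR1, had 0.64 and 0.41, and the NF-kB targets TNFAIP2, IL6 and LCN2 had 1.29, 0.95 and 0.71.

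Values below 0 were led by CCL20 at -4.67 and FN1 at -3.79. The ligands S100A8, SAA1 and SAA2 had -2.59, -2.25 and -1.68. IFIH1 and TNFAIP3 stood at -1.23 and -1.22, and KLRG1 at -0.30. IL6, KLRG1 and TMEM52B were dim on the control arrays, KLRG1 and TMEM52B with ESR1 too, and TMEM52B also with YAP/TAZ. The values of these genes are therefore differences of measured intensity and not exact.

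TLR4 is listed because all 3 shLATS1B arrays lay below the mean of the control arrays and all 3 labelled shLATS1+2 lay above it, a difference of 0.85 between the labels that was not tested.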

How the results depend on the processing

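TLR3 and MYD88 kept their direction and their side of the threshold under every alternative run, except that the uncalled MYD88 interaction turned to 0.0069 with each array centred on its median. The differences of OLR1, CD14 and TLR4 between groups moved by less than 1 SD. The OLR1 interaction, not given because its control level is dim, moved by more than 1 SD without ESR1 replicate 3. TLR6 lost the calls given in the report when single arrays were left out. Among dim members, TLR2 turned to -0.0078 for YAP/TAZ and -0.052 for ESR1 with centring and to -0.0041 for ESR1 with quantile normalization, and LY96 to 0.025 for both cDNAs against ESR1 with centring. With array weights limma called TLR2 for both cDNAs against YAP/TAZ (adjusted p = 0.034) and against ESR1 (adjusted p = 0.027), and LY96 for shLATS1B (adjusted p = 0.038). Without ESR1 replicate 1 it called TLR2 for both cDNAs against ESR1 (adjusted p = 0.038) and the LY96 interaction (adjusted p = 0.041). Leaving out arrays, TLR1 ranged from -0.099 to 0.080 for shLATS1B, -0.020 to 0.16 for shLATS1+2, -0.040 to 0.14 for YAP/TAZ, -0.092 to 0.087 for ESR1, -0.0030 to 0.11 for both cDNAs against YAP/TAZ and -0.020 to 0.16 for the interaction. TLR2 ranged from -0.053 to 0.0029 for shLATS1+2, -0.0028 to 0.036 for YAP/TAZ and -0.024 to 0.046 for ESR1. LY96 ranged from -0.0063 to 0.068 for both cDNAs against control and -0.086 to 0.0039 against ESR1. None of these was called with all 18 arrays, and the cause was not tested.

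Counts over all genes moved by more than 1.5 times for 5 comparisons. With only the arrays compared in the fit, and so fewer arrays to estimate the spread, ESR1 against control gave 1126 genes in place of 3487 and 19 of the pathway genes in place of 35, and both cDNAs against ESR1 gave 3273 in place of 5359. With array weights, shLATS1+2 against shLATS1B gave 248 in place of 59 and the interaction 5868 in place of 3512. Without both ESR1 replicate 1 and shLATS1+2 replicate 3, a choice made after seeing the data, YAP/TAZ against control gave 1945 in place of 1289, ESR1 against control 5776 and the interaction 5952. Leaving out single arrays, YAP/TAZ gave 848 (without its replicate 2) to 1246, ESR1 2299 (without its replicate 2) to 5461 (without replicate 1), shLATS1+2 against shLATS1B 33 (without shLATS1B replicate 2) to 54, with 35 without shLATS1B replicate 3 and 37 without shLATS1+2 replicate 3, and the interaction 2593 to 5607 (without ESR1 replicate 1). Pathway genes called between the hairpin labels were 1 in the report, 2 with quantile normalization, 0 with only the arrays compared, 8 with array weights and 1 to 2 without single arrays, 2 being reached without shLATS1B replicate 2 or shLATS1+2 replicate 1 or 2. The cause was not tested.

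Replicate numbers are shared by the groups. Deviations of replicates 1, 2 and 3 from their group means correlated at 0.54, -0.073 and 0.41 between ESR1 and control. Between shLATS1+2 and control they correlated at 0.48, -0.35 and 0.41. Both cDNAs and YAP/TAZ gave 0.29, 0.067 and 0.20, and both cDNAs and ESR1 gave -0.69, -0.31 and -0.36. No comparison had all 3 correlations above 0.1. A deviation shared by some same-numbered arrays was not tested beyond these values and the block below. With the replicate number as a block, counts over all genes were 4254 for shLATS1B, 4370 for shLATS1+2, 1147 for YAP/TAZ, 3288 for ESR1 and 5244 for both cDNAs against control. The interaction gave 3311 and the hairpin labels 55, and the block changed no call of a member.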
